A study of Mus musculus with 9 samples.

Results

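The 55 genes of the BMP and TGF-beta pathways described here are the ligands, receptors, extracellular antagonists and modulators, latent TGF-beta binding proteins, Smads, Smurf ligases and Id genes of one list. They were listed by name, with earlier results of these data known. All 55 were found among the 50686 genes of the deposited count table. BMPs and TGF-betas are secreted dimers that bring type II and type I receptor kinases together, after which the type I receptor phosphorylates receptor Smads in the cytoplasm. Smad1, Smad5 and Smad9 carry the BMP signal, Smad2 and Smad3 carry the TGF-beta and activin signal, and all of them enter the nucleus with Smad4. Secreted antagonists such as noggin and gremlin hold BMPs away from their receptors, Smad6 and Smad7 feed back on the receptors, and the Id genes are direct targets. In bone, BMP signaling drives osteoblast differentiation, and in endothelium ALK1, encoded by Acvrl1, is the type I receptor for circulating BMPs.

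RNA-Seq libraries of control osteoblasts, SB216763-treated osteoblasts and ECs were compared, with n = 3 libraries in each group. The osteoblasts were MC3T3-E1 cells, an established line from mouse calvaria, so both osteoblast groups represent a single line. The treated group received 10 μM SB216763, an inhibitor of the GSK3 kinases, for 14 days, and the controls are labeled as control with no agent named. The ECs were mouse pulmonary endothelial cells labeled as having no treatment, included as the endothelial reference. One treatment text, describing only MC3T3-E1 cells given SB216763, is attached to all 9 libraries, so the untreated state of the controls and ECs rests on their own titles and treatment entries. No genotype is given for any group, and the time in culture of the controls and the strain and age of the animals behind the ECs are not given in the sources used here. Nothing states that the 3 libraries of a group came from separate cultures or animals, so the p-values measure only the spread between these libraries, which may be technical. The question addressed was how the genes of these pathways stood in treated osteoblasts next to both reference states.

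The libraries held between 30990107 and 68946333 counts, and 3 counts, taken as the smallest amount that this depth can show, were worth 0.0435 to 0.0968 CPM, the unit of counts set to a common total per library. All levels are TMM-normalized CPM, where TMM is edgeR's scaling between libraries, and ± is the SD over n = 3 libraries. All 10 markers on an endothelial list were over 1 CPM in the ECs, with a summed level of 7447 to 7650 CPM, against 4.46 to 6.14 CPM in the 6 osteoblast libraries. The summed level of 10 osteoblast markers was 44940 to 60360 CPM in the controls, 12720 to 12930 CPM after treatment and 71.9 to 93.5 CPM in ECs. Of these 10, 8 were lower with treatment at an adjusted p under 0.01 by edgeR (80%, against 32% of all genes tested). The treated level of 1 was higher (10%, against 32.9% of all genes). The 8 mural cell markers summed to 3149 to 3296 CPM in controls and 912 to 922 CPM after treatment. In ECs they summed to 27.1 to 28.8 CPM. Most of the control sum was Acta2, whose decrease with treatment is given below. Of the 7 mural markers tested, 4 were lower with treatment by the same rule (57.1%, against 32% of all genes). Another 2 were higher (28.6%, against 32.9% of all genes). The 8 leukocyte markers summed to 26.8 to 28.3 CPM in controls, 8.57 to 10.1 CPM after treatment and 57.3 to 59.7 CPM in ECs, with between 1 and 3 of them at 0 in every library. The 7 epithelial markers summed to at most 0.313 CPM in any library, and the 6 adipocyte markers to 0.200 to 0.315 CPM in osteoblasts and 21.5 to 22.5 CPM in ECs. The part of these marker shifts in the changes described below was not tested.

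Of the 55 genes, 47 passed edgeR's expression filter and were tested. The other 8 were Bmp3, Bmp5, Bmp6, Bmp7, Bmp8a, Gdf5, Gdf10 and Bmpr1b, none of which reached more than 12 counts in any library. Bmp8a had the most, with 3 counts over the control libraries, 24 over the treated libraries and 18 over the EC libraries, and its near-identical copy Bmp8b makes that assignment uncertain. Bmp6 had 3, 1 and 9 counts over the same groups. In the plot of the levels of the 55 genes, the untested ligands form dark bands through all libraries.

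**Figure D1:**
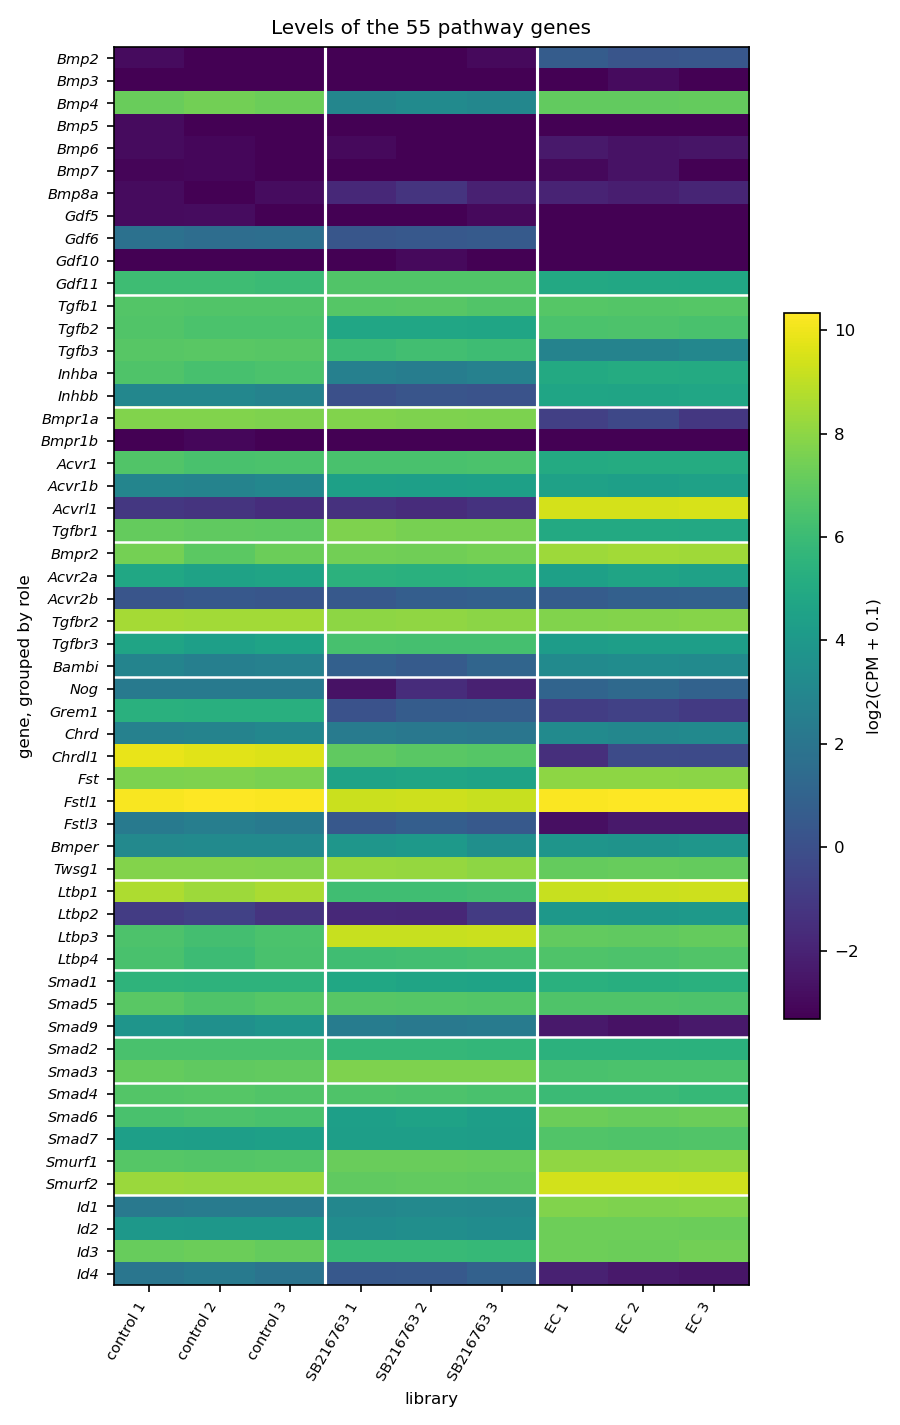
Level of each of the 55 genes (rows, grouped by role and separated by white lines) in each of the 9 libraries (columns), as log2(CPM + 0.1) in color. Colors compare libraries along a row, since rows are not scaled by gene length. Bmpr1a, at 211 CPM in controls, is bright in osteoblasts and dark in ECs, and Acvrl1, at 705 CPM in ECs, shows the opposite.

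Promoter sequence is given for 7 of the genes that the results turn on, picked after their values were seen. Smad1 is shown as the receptor Smad that the study follows, Bmp4 and Inhba as ligands, Grem1 as an antagonist and Smad6 and Id3 as feedback and target genes that were lower after treatment, and Ltbp3 as the gene that was higher. Each sequence holds the 250 bases before the start site in RefSeq on GRCm38.p6, read 5′ to 3′ on the strand of the gene. The gene positions given below come from GENCODE M21, which differs for some genes. There Id3 starts at 136143497, so its window lies inside the annotated gene. Smad1 ends there at 79399518, so its window overlaps the gene in part. Capitals mark the motifs searched on both strands, over these bases and the 50 bases after the start site. The motifs were the TCF/LEF site, taken as CTTTG followed by 2 bases that are each A or T, the palindromic Smad element GTCTAGAC, which contains no other motif searched, the GC-rich Smad element GGCGCC and the Smad box CAGAC.
Smad1 (chr8:79399429-79399678, minus strand): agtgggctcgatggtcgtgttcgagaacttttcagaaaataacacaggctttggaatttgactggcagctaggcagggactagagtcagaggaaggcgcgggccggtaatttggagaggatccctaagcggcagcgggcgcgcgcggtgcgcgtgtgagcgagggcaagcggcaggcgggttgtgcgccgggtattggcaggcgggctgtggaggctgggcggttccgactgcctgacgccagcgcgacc
Bmp4 (chr14:46390670-46390919, minus strand): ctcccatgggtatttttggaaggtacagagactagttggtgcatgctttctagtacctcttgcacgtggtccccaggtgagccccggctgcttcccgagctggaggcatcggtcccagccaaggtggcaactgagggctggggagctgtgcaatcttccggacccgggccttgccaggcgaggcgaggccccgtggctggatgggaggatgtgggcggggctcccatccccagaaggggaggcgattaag
Inhba (chr13:16011601-16011850, plus strand): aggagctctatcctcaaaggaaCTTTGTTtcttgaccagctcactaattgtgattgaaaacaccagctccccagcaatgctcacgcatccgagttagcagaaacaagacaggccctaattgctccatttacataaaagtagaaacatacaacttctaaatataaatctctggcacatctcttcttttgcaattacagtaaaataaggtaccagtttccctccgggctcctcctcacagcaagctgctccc
Grem1 (chr2:113758649-113758898, minus strand): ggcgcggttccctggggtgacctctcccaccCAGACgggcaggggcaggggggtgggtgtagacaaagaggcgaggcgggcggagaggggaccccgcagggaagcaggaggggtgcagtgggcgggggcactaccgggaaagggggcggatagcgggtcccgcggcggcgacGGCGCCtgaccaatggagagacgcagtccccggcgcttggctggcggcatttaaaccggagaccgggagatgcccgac
Smad6 (chr9:64022060-64022309, minus strand): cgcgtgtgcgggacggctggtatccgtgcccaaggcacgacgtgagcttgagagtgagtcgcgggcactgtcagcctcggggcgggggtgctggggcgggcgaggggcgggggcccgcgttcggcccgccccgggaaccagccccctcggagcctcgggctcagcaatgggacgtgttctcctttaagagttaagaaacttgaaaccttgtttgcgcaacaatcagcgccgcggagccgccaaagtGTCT
Id3 (chr4:136143572-136143821, plus strand): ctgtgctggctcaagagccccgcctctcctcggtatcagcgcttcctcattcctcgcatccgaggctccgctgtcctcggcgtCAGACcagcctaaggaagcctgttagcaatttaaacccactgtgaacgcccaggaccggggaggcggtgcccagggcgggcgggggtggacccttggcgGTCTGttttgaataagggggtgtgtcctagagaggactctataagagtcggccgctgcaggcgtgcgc
Ltbp3 (chr19:5740650-5740899, plus strand): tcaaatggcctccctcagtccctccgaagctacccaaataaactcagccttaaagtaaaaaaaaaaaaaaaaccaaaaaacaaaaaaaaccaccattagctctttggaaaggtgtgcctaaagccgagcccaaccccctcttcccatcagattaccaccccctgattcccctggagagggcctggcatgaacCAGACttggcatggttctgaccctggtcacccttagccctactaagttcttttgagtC

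None of these motifs was found in the windows of Smad1 and Bmp4, which says only that these letters are absent there. The Smad1 window does hold CTTTGGA, which the TCF/LEF letters searched do not cover. The study located β-catenin binding motifs upstream of Smad1, and its chromatin immunoprecipitation found more β-catenin around them after treatment. A primer of that assay matches the printed Smad1 window. Inhba held the TCF/LEF letters CTTTGTT at 228 to 222 bases before its start site. Grem1 held GGCGCC at 78 to 73 bases before the start site and CAGAC at 219 to 215 bases before and at 18 to 22 bases after it. In Smad6 the palindrome GTCTAGAC ran across the start site, from 4 bases before to 4 bases after, so its first 4 letters end the printed sequence. Id3 held CAGAC at 167 to 163 bases before the start site and, on the other strand, at 68 to 64 bases before it. Ltbp3 held CAGAC at 58 to 54 bases before the start site and again across it, with the first letter at the end of the printed sequence. Entries were found for 39 of the 55 genes, some with several start sites, giving 47 promoters of 32851 in the whole table. TCF/LEF letters were in 8 of the 47 (17%) and in 16.9% of all promoters, and CAGAC was in 23 of the 47 (48.9%) and in 49.6% of all. GGCGCC was in 15 of the 47 (31.9%) and in 11.9% of all, and the palindrome was in Smad6 as the only 1 of the 47 (2.13%) and in 0.213% of all. These matches describe sequence, not binding, and the full table also holds promoters of noncoding genes.

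SB216763 treatment was accompanied by lower levels of most of the tested pathway genes. At an adjusted p under 0.01, 25 of the 47 were lower (53.2%, against 32% of all 15531 genes tested) and 11 were higher (23.4%, against 32.9% of all genes), and 11 had no call. Past the study's cutoff of a log2 fold change of 2 or more in size together with that adjusted p, 9 were lower (5.84% of all genes were) and only Ltbp3 was higher (3.81% of all genes were). The median log2 fold change of the 47 genes was -0.57, against 0.014 over all genes tested, and the median size of the change was 0.76, against 0.55. The libraries of both groups did not overlap for 37 of the 47, a pattern held by 73.2% of all genes. In bulk samples, fewer cells of a type and less RNA per cell cannot be told apart. Scaling by library size only moved the median of all genes by 0.20 and the share of higher calls among all calls from 50.75% to 63.72%, and with it 24 of the pathway genes were lower and 16 higher.

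**Figure D2:**
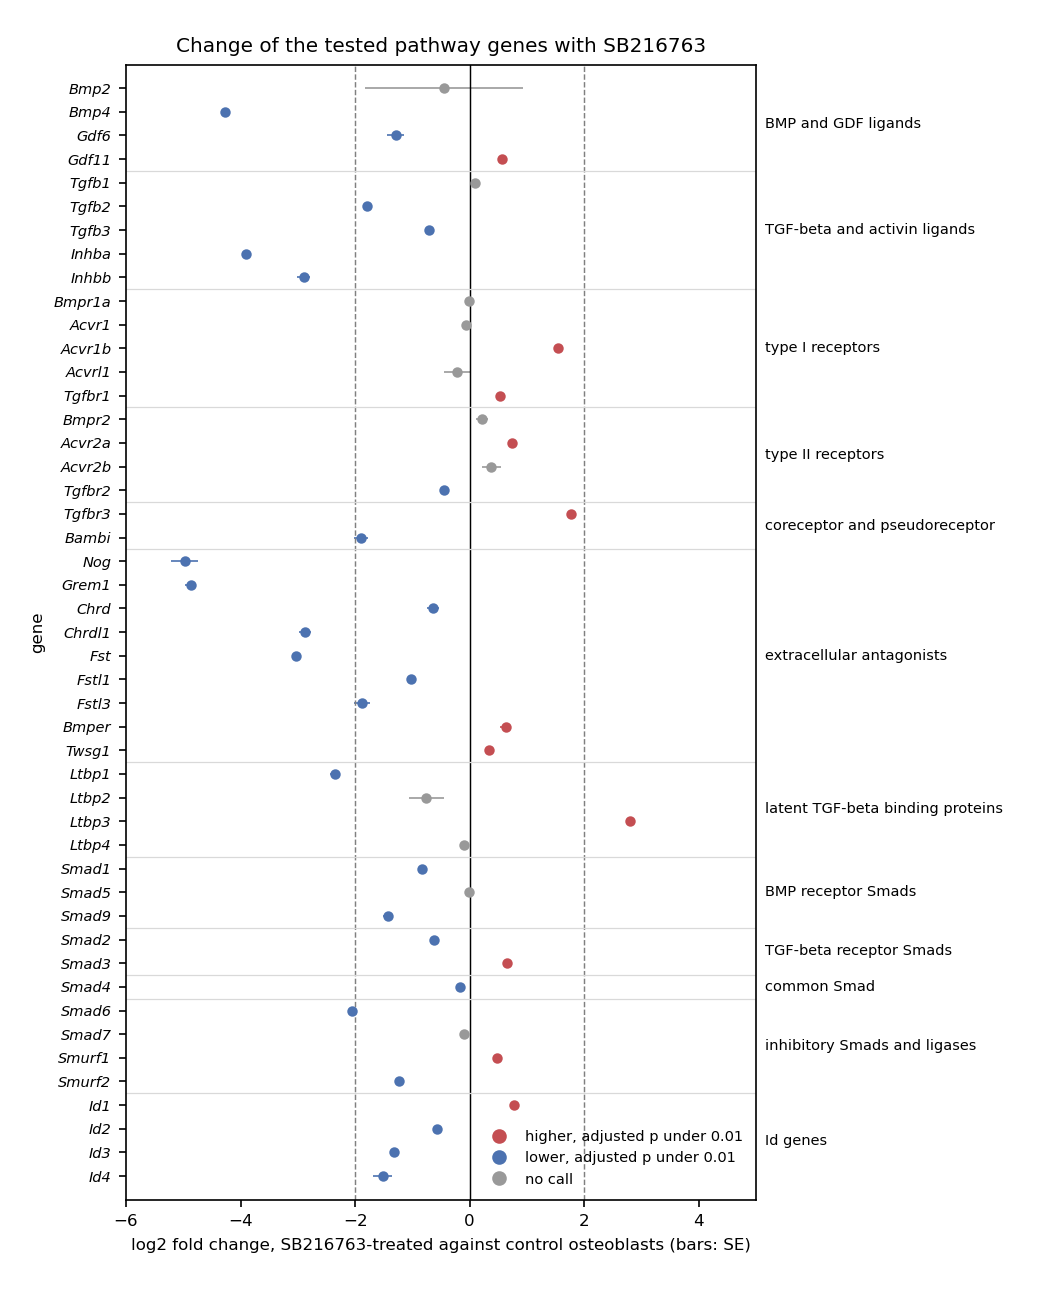
Log2 fold change of each of the 47 tested genes, SB216763-treated against control osteoblasts (x axis), with bars for the SE and genes grouped by role on the y axis. Red marks the 11 higher genes, blue the 25 lower genes and gray those with no call, and dashed lines stand at log2 fold changes of -2 and 2. Ltbp3 is the single gene right of the upper line.

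Among the BMP and GDF ligands, Bmp4 stood out. Bmp4 (ENSMUSG00000021835.14, chromosome 14, 46383520 to 46390669, in GENCODE M21 on GRCm38, as for all positions below) encodes the osteogenic ligand BMP4, and its level was 150.5, 169.9 and 154 CPM in the control libraries, 7.60, 9.02 and 7.84 CPM in the treated libraries and 133, 134 and 139 CPM in the EC libraries. All treated libraries lay far below all others. With treatment its log2 fold change was -4.28 (SE 0.07, edgeR adjusted p = 6.10e-17), from 158 ± 10.3 to 8.15 ± 0.760 CPM. An antisense gene, Gm15217, shares 3.96% of the exon bases of Bmp4 and was at 0.463 CPM or less on average in every group. Gdf6, a ligand of joint and eye development, decreased from 3.08 ± 0.253 to 1.26 ± 0.108 CPM, a log2 fold change of -1.29 (SE 0.15, edgeR adjusted p = 3.45e-06), and it had no count in any EC library. Gdf11, a ligand close to myostatin that signals through Smad2 and Smad3, increased from 66.8 ± 2.87 to 98.8 ± 0.872 CPM, a log2 fold change of 0.56 (SE 0.04, edgeR adjusted p = 1.08e-08). Bmp2, the other classical osteogenic BMP, was under the limit of this depth in osteoblasts, with 2, 0 and 0 counts in the controls and 0, 0 and 1 counts in the treated libraries. The ECs held 63, 36 and 51 counts of Bmp2, or 1.24 ± 0.181 CPM. The summed level of the 11 ligands was 221 to 241 CPM in controls and 107 to 109.5 CPM after treatment.

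Of the 5 TGF-beta and activin ligands, 4 were lower after treatment (80%, against 32% of all genes) and none was higher (32.9% of all genes were). Inhba (ENSMUSG00000041324.13, chromosome 13, 16011851 to 16031621), which encodes the subunit of activin A, was at 96.3, 82.8 and 87.4 CPM in controls, 5.96, 5.47 and 6.35 CPM after treatment and 31.5, 34.1 and 32.6 CPM in ECs. The treated libraries were the lowest of the 9, with the ECs between them and the controls. Its log2 fold change was -3.91 (SE 0.07, edgeR adjusted p = 2.13e-16). Inhbb (ENSMUSG00000037035.5, chromosome 1, 119415465 to 119422248), the activin B subunit, was at 7.78, 7.86 and 6.67 CPM in controls, 0.917, 1.09 and 1.01 CPM after treatment and 25.9, 25.5 and 26.96 CPM in ECs. Here the ECs were the highest and the treated libraries again the lowest. The log2 fold change of Inhbb was -2.90 (SE 0.11, edgeR adjusted p = 1.30e-12). Both genes code for activin subunits, which form dimers and signal through Acvr2a or Acvr2b with Acvr1b.

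Of the 3 TGF-beta genes, Tgfb2 and Tgfb3 were lower after treatment and Tgfb1 had no call. Tgfb1, the most widely expressed isoform, was at 101, 96.7 and 96.7 CPM in controls, 107, 110.1 and 97.9 CPM after treatment and 106, 101 and 108 CPM in ECs. The ranges of the 3 groups overlapped. With a log2 fold change of 0.10 (SE 0.05, edgeR adjusted p = 0.0977), no change of Tgfb1 passed the test. Tgfb2 decreased from 90.9 ± 6.50 to 26.3 ± 0.276 CPM, a log2 fold change of -1.79 (SE 0.06, edgeR adjusted p = 9.52e-14). Tgfb3 was at 108, 116 and 111 CPM in controls, 65.5, 72.1 and 68.7 CPM after treatment and 6.85, 6.91 and 7.90 CPM in ECs. Its 3 groups were separate and the ECs were by far the lowest. The decrease of Tgfb3 with treatment was smaller than that of Tgfb2, at a log2 fold change of -0.70 (SE 0.05, edgeR adjusted p = 4.27e-09), and the difference between these genes was not tested.

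**Figure D3:**
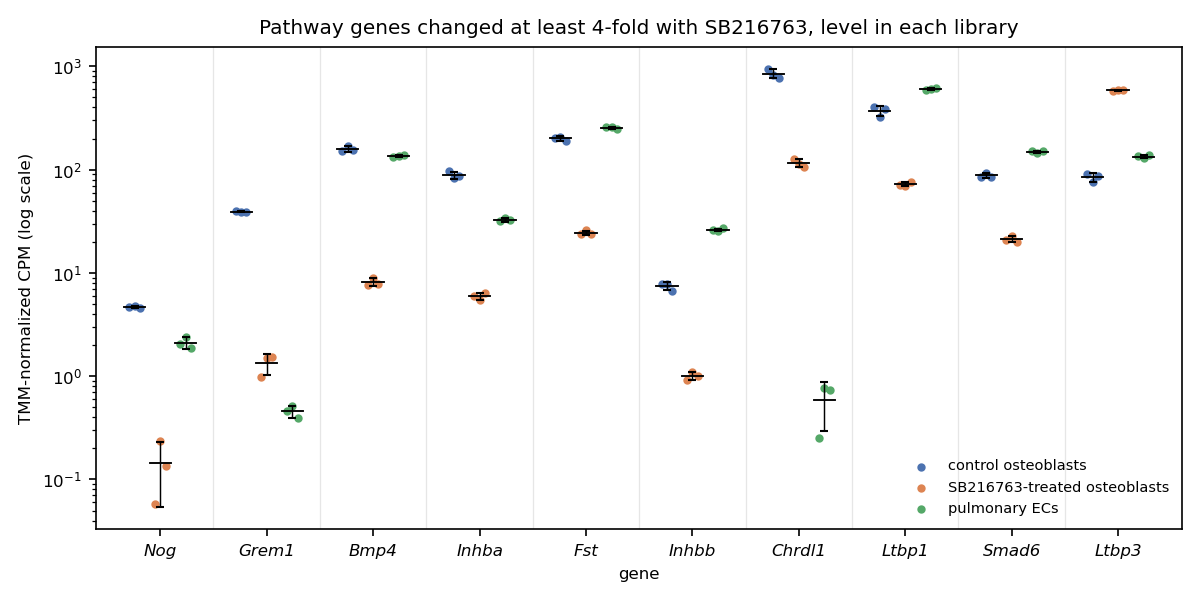
Level of the 10 genes past the fold cutoff (x axis) in each library, as TMM-normalized CPM on a log scale (y axis), with points for libraries, long bars for the mean and short bars for the SD of n = 3. Treated libraries (orange) lie below control libraries (blue) for 9 genes and above them for Ltbp3.

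Of the 5 type I receptors tested, 2 were higher after treatment (40%, against 32.9% of all genes) and none was lower (32% of all genes were). Bmpr1a, which encodes the BMP receptor ALK3, was at 215, 210.4 and 207 CPM in controls, 216, 207 and 202 CPM after treatment and 0.504, 0.670 and 0.371 CPM in ECs. The osteoblast groups overlapped and the ECs were near 0. For Bmpr1a the log2 fold change with treatment was -0.02 (SE 0.05, edgeR adjusted p = 0.782). Acvr1, the related BMP receptor ALK2, was at 90.1 ± 7.50 CPM in controls and 85.99 ± 2.18 CPM after treatment, with a log2 fold change of -0.07 (SE 0.05, edgeR adjusted p = 0.266). Tgfbr1, the TGF-beta receptor ALK5, was at 139, 129 and 123 CPM in controls, 203, 184 and 182 CPM after treatment and 30.7, 31.2 and 29.9 CPM in ECs. Every treated library was above every control library, at a log2 fold change of 0.54 (SE 0.05, edgeR adjusted p = 1.73e-07). Acvr1b, the activin receptor ALK4, increased from 7.36 ± 0.570 to 21.3 ± 0.215 CPM, a log2 fold change of 1.54 (SE 0.06, edgeR adjusted p = 4.05e-12), and stood at 21.6 ± 0.761 CPM in ECs. Acvrl1 was at 0.362, 0.309 and 0.243 CPM in controls, 0.287, 0.235 and 0.300 CPM after treatment and 706, 690.0 and 720.2 CPM in ECs. Both osteoblast groups were low and overlapped, and a difference between them was not detectable (log2 fold change -0.22 (SE 0.23, edgeR adjusted p = 0.550)).

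The type II receptors, which bind ligand and activate the type I partner, showed 1 gene higher, 1 lower and 2 with no call. The higher and lower shares were 25% each, against 32.9% and 32% of all genes. Bmpr2, the BMP type II receptor, was at 178, 118 and 152 CPM in controls, 174, 165 and 179.9 CPM after treatment and 321, 349 and 329 CPM in ECs. The osteoblast groups overlapped, with control replicate 2 the lowest library, and the ECs were the highest. The log2 fold change of Bmpr2 was 0.21 (SE 0.10, edgeR adjusted p = 0.0717), and without control replicate 1 it was 0.36 (edgeR adjusted p = 0.00118). Tgfbr2, the TGF-beta type II receptor, was at 361, 346 and 349 CPM in controls, 261, 268 and 246 CPM after treatment and 217, 224 and 227 CPM in ECs. Its controls were the highest of the 3 separate groups, and the log2 fold change was -0.44 (SE 0.05, edgeR adjusted p = 2.99e-07). Acvr2a, an activin type II receptor, increased from 25.4 ± 2.02 to 42.6 ± 1.63 CPM, a log2 fold change of 0.75 (SE 0.06, edgeR adjusted p = 3.26e-08). Orc4 on the opposite strand shares 7.84% of the exon bases of Acvr2a and was at 57.6 CPM in controls and 45.1 CPM after treatment on average. Acvr2b was at 1.17 ± 0.0568 and 1.52 ± 0.208 CPM, with a log2 fold change of 0.38 (SE 0.17, edgeR adjusted p = 0.0542).

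Tgfbr3, which encodes the coreceptor betaglycan, and Bambi, a pseudoreceptor that lacks a kinase domain, moved in opposite directions. Tgfbr3 increased from 23.4 ± 2.01 to 79.6 ± 0.867 CPM, a log2 fold change of 1.77 (SE 0.06, edgeR adjusted p = 1.65e-13), and was at 19.8 ± 0.962 CPM in ECs. Bambi decreased from 6.42 ± 0.557 to 1.73 ± 0.320 CPM, a log2 fold change of -1.90 (SE 0.12, edgeR adjusted p = 8.76e-10). Per kilobase of exon, so that genes can be compared, the level of Tgfbr2 in controls was 42.97 CPM per kilobase, the highest of the receptors there, followed by Bmpr1a at 33.2, Tgfbr1 at 19.97 and Acvr1 at 18.7 CPM per kilobase. After treatment the order at the top was Bmpr1a at 32.8, Tgfbr2 at 31.6 and Tgfbr1 at 29.01 CPM per kilobase. In ECs, Acvrl1 led with 165 CPM per kilobase, ahead of Tgfbr2 at 27.2 and Bmpr2 at 18.5 CPM per kilobase, while Bmpr1a was at 0.0811 CPM per kilobase.

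**Figure D4:**
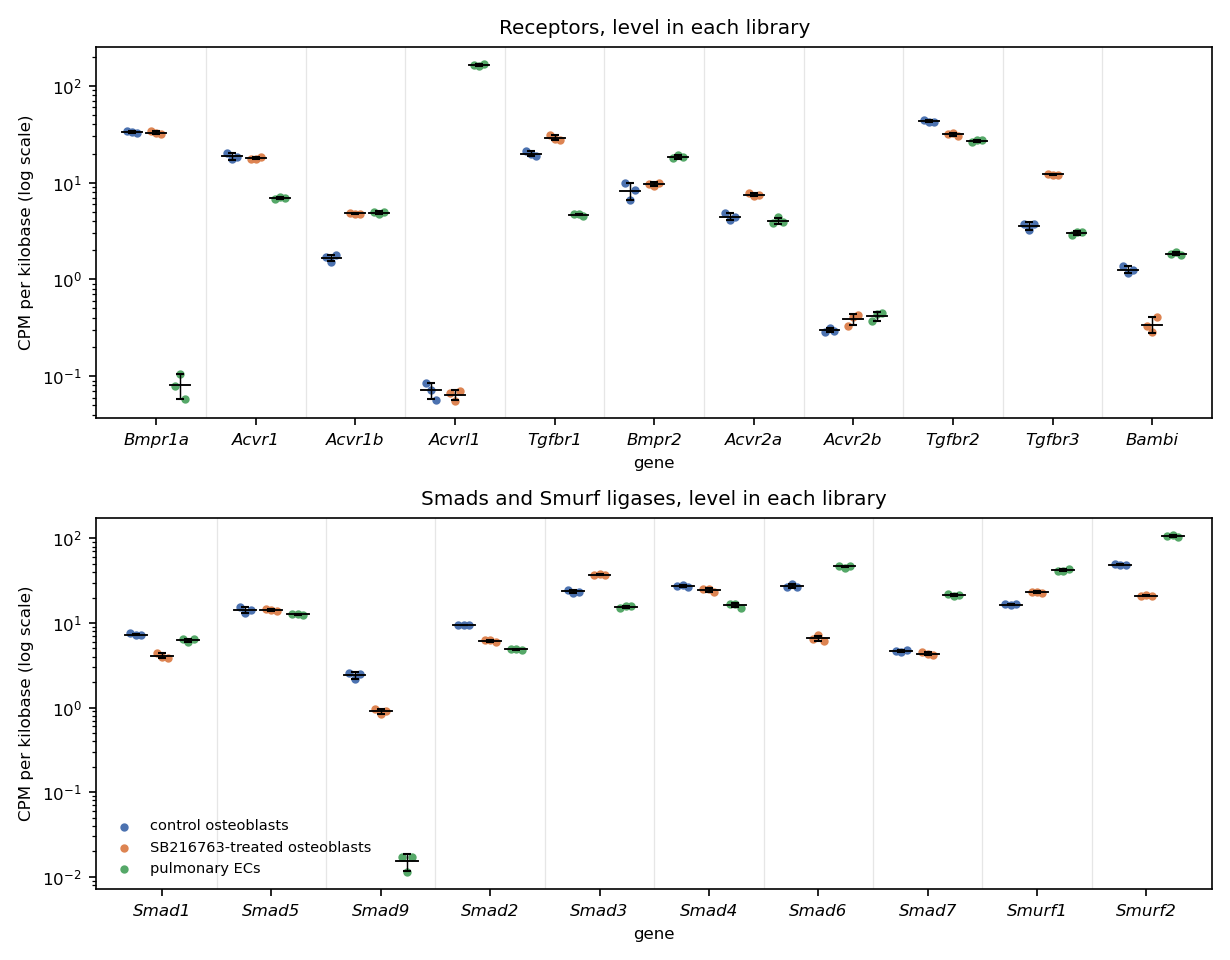
Level of receptor genes (upper panel) and of Smads and Smurf ligases (lower panel) in each library, as CPM per kilobase of exon on a log scale, with points for libraries and bars for the mean and SD of n = 3. Bmpr1a and Smad9 are the genes with ECs (green) far below the osteoblasts, and Acvrl1 is the gene with ECs far above them.

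The extracellular antagonists and modulators all passed the test, 7 lower (77.8%, against 32% of all genes) and 2 higher (22.2%, against 32.9%). Nog (ENSMUSG00000048616.4, chromosome 11, 89300638 to 89302332), which encodes the BMP antagonist noggin, was at 4.63, 4.79 and 4.58 CPM in controls, 0.0573, 0.235 and 0.136 CPM after treatment and 2.04, 2.41 and 1.88 CPM in ECs. The treated libraries held only 2, 9 and 5 counts, near the limit of the depth, and lay below both other groups. Its log2 fold change was -4.98 (SE 0.23, edgeR adjusted p = 1.58e-11). Grem1 (ENSMUSG00000074934.3, chromosome 2, 113746164 to 113758646), which encodes gremlin 1, another BMP antagonist, was at 39.8, 38.5 and 39.2 CPM in controls, 0.975, 1.49 and 1.53 CPM after treatment and 0.458, 0.518 and 0.394 CPM in ECs. Controls were far above both other groups, and the log2 fold change was -4.87 (SE 0.10, edgeR adjusted p = 4.74e-16). Chrdl1 (ENSMUSG00000031283.16, chromosome X, 143285674 to 143394262), which encodes the BMP-binding protein chordin-like 1, was at 944, 829.7 and 776 CPM in controls, 127, 114 and 106 CPM after treatment and 0.252, 0.761 and 0.741 CPM in ECs. The treated libraries lay between the controls and the ECs, at a log2 fold change of -2.88 (SE 0.10, edgeR adjusted p = 4.84e-13) against the controls.

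The genes of follistatin, which binds activins, and of its relatives also decreased. Fst (ENSMUSG00000021765.7, chromosome 13, 114452290 to 114458951), which encodes follistatin, was at 202, 209 and 191 CPM in controls, 23.8, 25.8 and 23.99 CPM after treatment and 259, 257 and 247 CPM in ECs. Treated libraries were the lowest and ECs the highest, and the log2 fold change with treatment was -3.03 (SE 0.05, edgeR adjusted p = 1.22e-16). Fstl1, a secreted protein with a follistatin-like domain, was at 1159, 1286 and 1223 CPM in controls, 599.8, 618 and 583 CPM after treatment and 1232, 1241 and 1241 CPM in ECs. Controls and ECs overlapped, while all treated libraries were lower, at a log2 fold change of -1.03 (SE 0.05, edgeR adjusted p = 4.54e-11). Fstl3 decreased from 5.10 ± 0.425 to 1.39 ± 0.203 CPM, a log2 fold change of -1.88 (SE 0.14, edgeR adjusted p = 4.53e-09). Chrd, which encodes chordin, went from 6.96 ± 0.830 to 4.42 ± 0.509 CPM, a smaller decrease with a log2 fold change of -0.63 (SE 0.11, edgeR adjusted p = 5.90e-05). The higher genes were Bmper and Twsg1, whose products bind BMPs or chordin and can act for or against the signal. Twsg1 was at 223, 222 and 216 CPM in controls, 295, 287 and 253 CPM after treatment and 139, 142 and 135 CPM in ECs. The 3 groups of Twsg1 were separate, with a log2 fold change of 0.34 (SE 0.05, edgeR adjusted p = 3.45e-05). Bmper went from 8.91 ± 0.341 to 13.7 ± 2.42 CPM, a log2 fold change of 0.63 (SE 0.10, edgeR adjusted p = 4.14e-05). The summed level of the 9 genes was 2472 to 2611 CPM in controls, 984 to 1068 CPM after treatment and 1650 to 1665 CPM in ECs.

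The latent TGF-beta binding proteins, which hold TGF-beta in the matrix, included the only gene past the fold cutoff in the upward direction. Ltbp3 (ENSMUSG00000024940.10, chromosome 19, 5740904 to 5758532) was at 90.7, 75.3 and 87.3 CPM in controls, 582, 589 and 592 CPM after treatment and 135, 129 and 137 CPM in ECs. Treated libraries were far above all others. Against controls, the log2 fold change was 2.80 (SE 0.06, edgeR adjusted p = 1.82e-15). Ltbp1 (ENSMUSG00000001870.15, chromosome 17, 75005568 to 75392512) was at 401, 324 and 390.2 CPM in controls, 71.3, 69.96 and 76.1 CPM after treatment and 585, 603 and 620.1 CPM in ECs. Treated libraries of Ltbp1 were the lowest and ECs the highest, at a log2 fold change of -2.36 (SE 0.07, edgeR adjusted p = 7.46e-14). Ltbp4 was at 78.8 ± 11.00 CPM in controls and 73.8 ± 5.20 CPM after treatment, a log2 fold change of -0.09 (SE 0.08, edgeR adjusted p = 0.319) that reached an adjusted p of 0.00115 by edgeR without control replicate 2. Ltbp2 was at 0.427 ± 0.108 and 0.264 ± 0.126 CPM, a log2 fold change of -0.76 (SE 0.31, edgeR adjusted p = 0.0385) that was -1.22 (edgeR adjusted p = 0.00521) without SB216763 replicate 3. The summed level of the 4 genes went from between 466 and 578 CPM in controls to between 723 and 748 CPM after treatment.

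Of the 3 receptor Smads of the BMP branch, 2 were lower after treatment (66.7%, against 32% of all genes). Smad1 (ENSMUSG00000031681.16, chromosome 8, 79338395 to 79399518) was at 47.1, 45.2 and 44.9 CPM in controls, 27.6, 25.02 and 24.4 CPM after treatment and 40.1, 37.4 and 40.1 CPM in ECs. Treated libraries were the lowest and the 3 groups were separate. The log2 fold change of Smad1 was -0.84 (SE 0.05, edgeR adjusted p = 6.65e-10). Smad9 was at 13.9, 11.7 and 13.6 CPM in controls, 5.16, 4.51 and 4.93 CPM after treatment and 0.0916, 0.0609 and 0.0927 CPM in ECs. The order was controls, treated, then ECs, which held 4, 2 and 4 counts, and the log2 fold change with treatment was -1.42 (SE 0.09, edgeR adjusted p = 6.12e-10). Smad5 was at 115, 96.2 and 106 CPM in controls, 109, 105 and 103 CPM after treatment and 94.4, 95.1 and 92.8 CPM in ECs. The osteoblast groups overlapped, and the log2 fold change of -0.0040 (SE 0.06, edgeR adjusted p = 0.962) was smaller than its error. Per kilobase, the control levels of Smad5, Smad1 and Smad9 were 14.3, 7.31 and 2.43 CPM per kilobase, and the treated levels were 14.2, 4.10 and 0.907 CPM per kilobase.

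Both receptor Smads of the TGF-beta branch changed, in opposite directions. Smad2 was at 83.8, 83.5 and 83.8 CPM in controls, 55.2, 55.3 and 52.5 CPM after treatment and 43.8, 42.9 and 41.9 CPM in ECs. Levels were highest in controls and lowest in ECs, and the log2 fold change was -0.62 (SE 0.04, edgeR adjusted p = 1.21e-09). Smad3 was at 136, 126 and 131 CPM in controls, 203, 209 and 206 CPM after treatment and 83.6, 87.7 and 88.4 CPM in ECs. Here the treated libraries were the highest, with a log2 fold change of 0.65 (SE 0.04, edgeR adjusted p = 1.38e-09). Smad4, the partner of both branches, was at 103, 105 and 99.6 CPM in controls, 94.00, 92.6 and 86.3 CPM after treatment and 62.5, 62.9 and 56.5 CPM in ECs. The control and treated libraries of Smad4 lay close to each other without overlap, and the log2 fold change of -0.17 (SE 0.05, edgeR adjusted p = 0.00635) became 0.030 when only library size was used for scaling. The adjusted p of Smad4 was 0.0132 without control replicate 1, 0.0110 without SB216763 replicate 2 and 0.0345 without SB216763 replicate 3 (edgeR).

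The inhibitory Smads responded differently. Smad6 (ENSMUSG00000036867.7, chromosome 9, 63953076 to 64022059), an inhibitor of BMP receptors that is itself a BMP target, was at 85.3, 93.1 and 85.4 CPM in controls, 21.01, 22.9 and 19.9 CPM after treatment and 151, 145 and 151 CPM in ECs. Treated libraries were the lowest and ECs the highest, and the log2 fold change was -2.05 (SE 0.06, edgeR adjusted p = 2.61e-14), which fell short of the fold cutoff at -1.85 when only library size was used for scaling. Smad7, which inhibits both branches, was at 21.01, 20.3 and 21.9 CPM in controls, 20.4, 19.7 and 19.1 CPM after treatment and 100.1, 93.8 and 97.5 CPM in ECs. The osteoblast groups overlapped, with a log2 fold change of -0.10 (SE 0.05, edgeR adjusted p = 0.105), and the ECs were the highest. Smurf1 and Smurf2 encode ubiquitin ligases that act on Smads and their receptors. Smurf1 was at 106, 103 and 105 CPM in controls, 149, 148 and 142 CPM after treatment and 263, 264 and 279 CPM in ECs. Each treated library was above each control library, and the log2 fold change was 0.48 (SE 0.04, edgeR adjusted p = 4.28e-08). Smurf2 was at 307, 301 and 296 CPM in controls, 129, 131 and 127 CPM after treatment and 661, 678 and 644 CPM in ECs. Smurf2 was lowest in the treated libraries and highest in ECs, at a log2 fold change of -1.23 (SE 0.04, edgeR adjusted p = 6.60e-13) with treatment.

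The Id genes encode dimerization partners that block the DNA binding of bHLH factors. After treatment 3 of the 4 were lower (75%, against 32% of all genes). Id3 was at 141, 152 and 139.5 CPM in controls, 58.1, 59.5 and 56.4 CPM after treatment and 162, 153 and 168 CPM in ECs. Treated libraries were well below both other groups, which lay close together, and the log2 fold change was -1.31 (SE 0.05, edgeR adjusted p = 1.48e-12). Id1 was at 4.43, 5.04 and 5.11 CPM in controls, 7.97, 8.58 and 8.09 CPM after treatment and 210.4, 205 and 216 CPM in ECs. It was the Id gene that increased, with a log2 fold change of 0.77 (SE 0.07, edgeR adjusted p = 6.93e-08), and both osteoblast groups stayed far below the ECs. Id2 was at 15.2, 14.9 and 15.00 CPM in controls, 10.03, 10.5 and 9.78 CPM after treatment and 157, 158 and 153 CPM in ECs. Its treated libraries were the lowest, at a log2 fold change of -0.57 (SE 0.05, edgeR adjusted p = 5.53e-08). Id4 was at 4.03, 4.79 and 3.68 CPM in controls, 1.26, 1.33 and 1.80 CPM after treatment and 0.137, 0.0914 and 0.0695 CPM in ECs. Id4 was highest in controls and held 6, 3 and 3 counts in the ECs, and its log2 fold change with treatment was -1.52 (SE 0.16, edgeR adjusted p = 3.30e-07). Per kilobase, Id3 was the highest Id gene in osteoblasts, at 80.5 CPM per kilobase in controls and 32.4 CPM per kilobase after treatment, and Id1 in controls was at 4.19 CPM per kilobase.

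**Figure D5:**
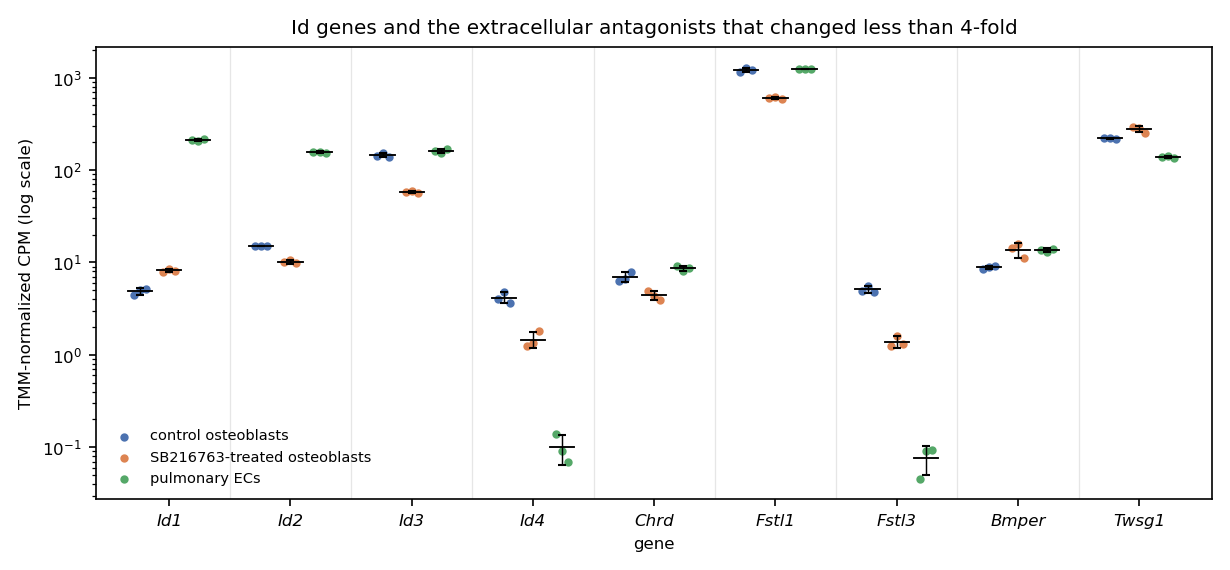
Level of the Id genes and of the antagonists and modulators that changed less than 4-fold (x axis) in each library, as TMM-normalized CPM on a log scale (y axis), with points for libraries and bars for the mean and SD of n = 3. Treated libraries lie below controls for Id2, Id3, Id4, Chrd, Fstl1 and Fstl3 and above them for Id1, Bmper and Twsg1.

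The comparison of control osteoblasts with ECs asked how the pathway differed between these cells before treatment. The osteoblasts were an established line, and the study isolated the ECs by FACS. Cell type and preparation therefore cannot be told apart in either comparison with ECs. Of the 47 genes, 21 were higher in control osteoblasts (44.7%, against 37.9% of all genes tested) and 20 were lower (42.6%, against 39% of all), with 6 not called. Past the fold cutoff, 9 were higher (9.87% of all genes were) and 6 lower (13.5% of all genes were). The libraries of both groups were apart for 43 of the 47, as for 84% of all genes. The median size of the difference was 1.13 on the log2 scale, against 0.72 over all genes.

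Higher in control osteoblasts past the cutoff were the ligands Tgfb3 and Gdf6, the type I receptors Bmpr1a and Tgfbr1, the antagonists Chrdl1, Grem1 and Fstl3, and Smad9 and Id4. Bmpr1a had a log2 fold change of 8.71 (SE 0.09, edgeR adjusted p = 7.52e-20) and Chrdl1 of 10.54, and Tgfb3 and Tgfbr1 had values of 3.95 and 2.09. Grem1 differed by a log2 fold change of 6.43, Smad9 by 7.23, Fstl3 by 6.03 and Id4 by 5.35, and the last 3 were at about 3 counts per EC library, so these sizes are imprecise. Gdf6 had no count in ECs and was at least 40.3-fold higher in controls, taking 3 counts per library as the floor. Lower in control osteoblasts were Acvrl1, with a log2 fold change of -11.10 (SE 0.08, edgeR adjusted p = 1.35e-20), Id1 at -5.45, Ltbp2 at -5.12, Id2 at -3.37 and Smad7 at -2.21. Bmp2 was the sixth, and no fold is given for it because its osteoblast libraries held at most 2 counts.

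Some other genes were at close levels in the control osteoblasts and the ECs. Tgfb2 was at 90.9 ± 6.50 and 89.3 ± 3.50 CPM, with a log2 fold change of 0.03 (SE 0.05, edgeR adjusted p = 0.644), and the ranges of the libraries overlapped. Fstl1 likewise overlapped, at a log2 fold change of -0.02 (SE 0.05, edgeR adjusted p = 0.755). Bmp4 was higher in controls by a log2 fold change of 0.23 and Smad1 by 0.22, and Id3 was lower with -0.16. All 4 latent TGF-beta binding protein genes and all 4 of the inhibitory Smads and Smurf ligases were lower in control osteoblasts than in ECs. Of all genes tested, 39% were lower. Some small differences lost their call when 1 library was left out. Without EC replicate 1 the adjusted p by edgeR was 0.0104 for Bmp4, 0.0187 for Tgfbr3, 0.0226 for Chrd, 0.0113 for Ltbp4 and 0.0227 for Id3. The call of Tgfbr3 was also lost without control replicate 1 (0.0138), that of Chrd without control replicates 1 and 2 and EC replicate 3 (0.0305, 0.0115 and 0.0181), and that of Ltbp4 without control replicate 2 and EC replicate 3 (0.0101 and 0.0240). For Id3 the adjusted p was between 0.0109 and 0.0589 when any library other than control replicate 2 and EC replicate 2 was left out. Smad5, with an adjusted p of 0.0117, gained a call without control replicate 2 (7.57e-05) or SB216763 replicate 3 (0.00901), and Acvr2a without control replicate 2 (0.00419).

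Treated osteoblasts were then set beside the ECs, a comparison that shares its libraries with both others. Of the 47 genes, 19 were higher in treated osteoblasts (40.4%, against 38.3% of all genes tested) and 23 were lower (48.9%, against 40.3% of all), with 5 not called. Past the fold cutoff, 10 were higher (10.3% of all genes were) and 15 lower (15% of all genes were). The libraries were apart for 43 of the 47, as for 85.4% of all genes, and the median size of the difference was 2.14, against 0.82 over all genes.

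Ligands and antagonists made up 8 of the 15 genes lower in treated osteoblasts than in ECs. These were Bmp2, Bmp4, Inhba, Inhbb, Nog, Fst, Ltbp1 and Ltbp2 when the latent TGF-beta binding proteins are counted with them. The log2 fold change was -4.05 (SE 0.07, edgeR adjusted p = 1.74e-17) for Bmp4 and -3.37 (SE 0.05, edgeR adjusted p = 6.54e-18) for Fst. Inhibitory genes formed another group, with Smad6 at -2.81, Smad7 at -2.30, Smurf2 at -2.36 and Bambi at -2.44. The remaining genes were Acvrl1 at -11.32, Id1 at -4.68 and Id2 at -3.95. Higher in treated osteoblasts were Ltbp3 with a log2 fold change of 2.14 (SE 0.06, edgeR adjusted p = 1.23e-14), Tgfbr3 with 2.01, Tgfbr1 with 2.63, Bmpr1a with 8.69, Tgfb3 with 3.25 and Chrdl1 with 7.66. Fstl3, Smad9 and Id4 were also higher, at 4.15, 5.81 and 3.83, and Gdf6 was at least 16.5-fold higher. Of the genes that moved with treatment, Acvr1b and Bmper were at levels that overlapped those of ECs. Acvr1b was at 21.5, 21.1 and 21.2 CPM in treated osteoblasts and 22.04, 20.7 and 22.1 CPM in ECs, a log2 fold change of -0.03 (SE 0.06, edgeR adjusted p = 0.689). Bmper was at 14.2, 15.8 and 11.1 and 13.8, 12.9 and 14.1 CPM, with a log2 fold change of 0.0085 (SE 0.10, edgeR adjusted p = 0.939).

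Other genes of the pathway were described from 6 further lists with 111 genes, of which 86 were tested. Of these, 45 were lower after treatment (52.3%, against 32% of all genes tested) and 22 higher (25.6%, against 32.9%). Past the fold cutoff, 16 were lower (5.84% of all genes were) and 1 was higher (3.81% of all genes were). Their median log2 fold change was -0.20, against 0.014 over all genes. Among 18 known BMP response genes, 17 were tested, 12 were lower (70.6%, against 32% of all genes) and 1 was higher (5.88%, against 32.9%), with a median log2 fold change of -1.14, against 0.014 over all genes. Hey1, a transcription factor of the Notch and BMP response, was at 1.06 ± 0.212 CPM in controls and 0.0369 ± 0.0177 CPM after treatment. That treated level was under the 3 counts per library taken as the limit of this depth. Its log2 fold change of -4.73 is therefore imprecise. Atoh8, a bHLH factor, went from 67.5 ± 1.62 to 4.53 ± 0.537 CPM, a log2 fold change of -3.90 (SE 0.07, edgeR adjusted p = 2.11e-16). Sp7, which encodes the osteoblast transcription factor osterix, went from 298 ± 11.6 to 25.98 ± 1.36 CPM, a log2 fold change of -3.52 (SE 0.06, edgeR adjusted p = 4.56e-17). Tnfrsf11b, which encodes osteoprotegerin, went from 68.6 ± 3.05 to 12.4 ± 1.16 CPM, and the homeobox genes Msx2 and Dlx6 had log2 fold changes of -1.49 and -1.42. Gata2 was the higher gene of this list, with 0.64, and was chosen after its value was seen. Runx2 and Sp7 are also osteoblast markers, so this list is not separate from that one.

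Among 20 known TGF-beta response genes, all tested, 15 were lower (75%, against 32% of all genes) and 3 higher (15%, against 32.9%), and the median log2 fold change was -1.62, against 0.014 over all genes. Acta2, which encodes smooth muscle actin and is also a mural marker, went from 2915 ± 95.8 to 144 ± 9.10 CPM, a log2 fold change of -4.34 (SE 0.06, edgeR adjusted p = 2.06e-17). Timp3, an inhibitor of matrix proteases, went from 1368 ± 10.2 to 92.2 ± 3.41 CPM, and Lox, which crosslinks collagen, from 1312 ± 64.8 to 148 ± 7.77 CPM. Ccn1, a matricellular protein gene, had a log2 fold change of -2.73, and Tagln and Edn1 had values of -3.37 and -2.80 at low levels. The 3 higher genes were Tgfbi, Cdkn1a and Skil, with 1.25, 0.26 and 0.23, and were chosen after their values were seen.

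Of 26 other extracellular regulators, 18 were tested, 9 were lower (50%, against 32% of all genes) and 6 higher (33.3%, close to the 32.9% of all genes). Fbn2, which encodes a fibrillin that binds BMPs and latent TGF-beta complexes, went from 130.2 ± 38.3 to 3.72 ± 0.558 CPM, a log2 fold change of -5.12 (SE 0.21, edgeR adjusted p = 2.69e-12). Thbs1, which encodes thrombospondin 1, an activator of latent TGF-beta, went from 2117 ± 263 to 466 ± 12.7 CPM. Mgp, which encodes matrix Gla protein, a BMP inhibitor and inhibitor of calcification, went from 594 ± 11.8 to 197 ± 10.5 CPM, a log2 fold change of -1.59 (SE 0.08, edgeR adjusted p = 7.79e-11). Tll1, a protease that cleaves chordin, had a log2 fold change of -4.83. Nbl1, which encodes a BMP antagonist of the DAN family, rose against the direction of Nog and Grem1, from 56.5 ± 1.69 to 305 ± 21.5 CPM, a log2 fold change of 2.43 (SE 0.05, edgeR adjusted p = 1.58e-15), and was the only gene of the 6 lists higher past the fold cutoff. Htra3, a secreted protease, had a log2 fold change of 1.82.

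Of 9 other receptors and coreceptors, 6 were tested, 4 were higher (66.7%, against 32.9% of all genes) and 2 lower (33.3%, close to the 32% of all genes). Rgmb and Rgma, BMP coreceptors, had log2 fold changes of 1.31 and 0.84, their receptor gene Neo1 of 0.51, and the TGF-beta trap Vasn of 0.61. Eng, the endothelial coreceptor endoglin, went from 4.52 ± 0.277 to 2.65 ± 0.335 CPM, a log2 fold change of -0.79 (SE 0.09, edgeR adjusted p = 1.65e-06), and was at 509 ± 18.6 CPM in ECs. Of 17 other ligands, 5 were tested and 2 were higher (40%, against 32.9% of all genes). Inha, the alpha subunit that turns activin subunits into inhibins, went from 2.20 ± 0.384 to 3.91 ± 0.499 CPM, a log2 fold change of 0.79 (SE 0.15, edgeR adjusted p = 3.41e-04). Of 25 intracellular regulators, 24 were tested, 9 were lower (37.5%) and 7 higher (29.2%), near the shares of all genes (32% and 32.9%), and none passed the fold cutoff. Tgif2, a Smad corepressor, had the largest change of these among genes at 1 CPM or more, a log2 fold change of -0.93, followed by Fkbp1a at -0.80 and the coactivator gene Ep300 at 0.67. Strap, Stub1 and Zfyve9 had log2 fold changes of -0.66, 0.54 and 0.43.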

How the data were processed

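RNA-Seq counts of 9 libraries were analyzed. STAR was used by the authors for alignment and for counting reads by gene, listed as version 2.5.3a with GRCm38 in the submitters' processing notes, and they deposited whole-number counts without normalization for 50686 genes. The annotation release and the strand setting are not given in the sources used here, so counts of overlapping genes on opposite strands and of near-identical copies are uncertain.

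Columns were matched to libraries by sample name, and groups were taken from the sample titles. Symbols were found for 50376 identifiers, and coordinates and exon lengths come from GENCODE M21. The members and lists were chosen with earlier results of these data known. Genes were kept by filterByExpr, scaled by TMM and tested with the quasi-likelihood test of edgeR 4.0.16 (R 4.3.3) in 1 fit of all 9 libraries, with Benjamini-Hochberg adjustment over the 15531 genes tested. Every adjusted p comes from this test. Genes were called at an adjusted p under 0.01, alone or with a log2 fold change of 2 or more in size. A prior count of 0.125 was used. Each SE is the size of the log2 value divided by the square root of its F. Levels per library are given for genes past both thresholds with treatment, Smads, Id genes and genes with a group mean of at least 100 CPM. Up to 6 genes of each further list are named, those with the largest called changes at 1 CPM or more, besides genes said to be chosen after their values were seen and Runx2, named as a shared marker without a value. Floors of 3 counts cover counting error only. Tested on simulated counts of treated and control libraries, edgeR called 99 of 100 genes changed by a log2 value of 1, all 100 changed by 3, and 2 others of 15531. The simulation gave every gene the same spread (biological coefficient of variation 0.0554) and changed only genes above a count minimum. It therefore does not cover noisier genes or those at a few counts. Alternatives were DESeq2 1.42.0, limma-voom (limma 3.58.1), other scalings, filters, thresholds and prior counts, fits of 2 groups, a replicate block and each library left out. No replicates were alike within sampling noise (chi-square per gene 2.85 to 104).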

Additional observations from a re-analysis of the deposited data

How the results depend on the processing

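Across the alternatives, 35 of 36 called genes kept direction and call for treated against control osteoblasts, 35 of 41 for control osteoblasts against ECs, and all 42 for treated osteoblasts against ECs. Counts of called genes stayed within 1.5 times of the reported ones except past the fold cutoff. There, with treatment, 2 genes were higher with no filter (Ltbp3 and Bmp8a, the latter at 3.24), and with a cutoff of 1 on the log2 scale 3 were higher and 18 lower, and 11 were lower in control osteoblasts than in ECs. With 1 library left out, 11 to 12 genes were higher and 24 to 26 lower with treatment. Whether the replicate numbers shared by the groups pair the libraries is not stated, and the values here do not settle it. Same-numbered control and treated libraries had deviations that correlated at 0.036, 0.22 and 0.19 across genes, and different-numbered ones at -0.22 to 0.054. For control and EC libraries the same-numbered values were -0.062, -0.059 and 0.071, and the different-numbered ones -0.056 to 0.11. For treated and EC libraries they were -0.0056, -0.0065 and -0.060, against -0.12 to 0.13. With the replicate number as a replicate block, 11 genes were higher and 25 lower with treatment, 22 and 20 in controls against ECs, and 20 and 23 in treated osteoblasts against ECs, and 9 genes were lower and 1 higher with treatment past the fold cutoff. The 2 added calls under the block were both Smad5.

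Of the called genes, Smad4 alone changed sign with treatment, to 0.0295 with scaling by library size only. Scaling by library size also cost Bmp4, Tgfbr3 and Smad1 their calls in controls against ECs, at 0.10, 0.11 and 0.097. In that comparison Id3 lost its call with no filter (edgeR adjusted p = 0.0587) and in the fit of 2 groups (0.0188). Ltbp4 lost its call in the fit of 2 groups (edgeR adjusted p = 0.0173). With treatment, Smad4 lost its call with no filter (edgeR adjusted p = 0.0294). The other sign changes were in genes with no call, and the cause was not tested. With treatment and library size only, Bmpr1a was at 0.187, Acvr1 at 0.136, Ltbp4 at 0.113, Smad5 at 0.200 and Smad7 at 0.109. In this setting Bmpr1a and Smad5 gained a call as higher (edgeR adjusted p = 0.00274 and 0.00396). Tgfb1 at 0.299, Bmpr2 at 0.418 and Acvr2b at 0.580 also gained one (edgeR adjusted p = 2.82e-05, 0.00194 and 0.00527). Upper-quartile scaling gave 0.000656 for Bmpr1a and 0.0143 for Smad5, no filter gave 0.00857 for Smad5, a filter of 10 counts gave 7.1e-05 for Smad5, and limma-voom gave 0.098 for Bmp2. For control osteoblasts against ECs, Tgfb2 was at -0.0997 with library size only, and Fstl1 at 0.0021 with no filter and 0.00048 in the fit of 2 groups. For treated osteoblasts against ECs, Tgfb1 was at -0.0173 by DESeq2, -0.00099 by limma-voom and -0.00038 with the replicate block. Acvr1b was at 0.0522 with library size only, 0.0071 with no filter and 0.0041 in the fit of 2 groups, and Bmper was at -0.0086 by DESeq2 and -0.0079 by limma-voom. With 1 library left out, the range with treatment was -2.49 to 1.94 for Bmp2, -0.0501 to 0.0067 for Bmpr1a and -0.0788 to 0.0573 for Smad5. It was -0.0309 to 0.0697 for Tgfb2 and -0.0488 to 0.0244 for Fstl1 in controls against ECs, and -0.0289 to 0.0603 for Tgfb1, -0.193 to 0.0125 for Acvr2b and -0.106 to 0.152 for Bmper in treated osteoblasts against ECs. The depth limits Bmp2 in osteoblasts, Gdf6, Smad9, Fstl3 and Id4 in ECs, Nog and Hey1 after treatment, and the 8 genes that were not tested.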
